A study of Homo sapiens with 6 samples.

Results

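Nestin, vimentin and the neuronal intermediate filaments are 8 genes: NES, VIM, INA, NEFL, NEFM, NEFH, PRPH and SYNM. Members were taken as the probe sets annotated to these symbols, with the brightest probe set of each gene chosen by its mean over the 6 arrays. The genes themselves were chosen by family name, with their levels and their differences between the groups already known. NES, VIM and PRPH were measured, 3 of the 8 listed genes and 3 of 14883 named genes in all, through 5 probe sets of which VIM had 3. INA, NEFL, NEFM, NEFH and SYNM were not analysed here, so nothing below speaks for the neurofilament triplet, alpha-internexin or synemin. The cells were SK-N-BE(2), an established human neuroblastoma line. One group (shBRG1, n = 3) carried a pLKO lentivirus with a hairpin against BRG1, and the other (NSC, n = 3) a pLKO lentivirus with a non-silencing control hairpin. Cells were harvested for RNA at 48 h after infection, with 200 ng of it per array and 1 array per sample. BRG1, encoded by SMARCA4, is the enzyme that drives SWI/SNF, a complex that moves nucleosomes. Only 1 hairpin against it is labelled, and the depletion of its own transcript was not analysed here, so the groups rest on their labels.

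Intermediate filaments are rope-like polymers of coiled-coil proteins, and each cell lineage builds them from its own set. Neural progenitors make nestin, which assembles together with vimentin, and as neurons mature these give way to neurofilament proteins, alpha-internexin and, in peripheral and sympathetic neurons, peripherin. Neuroblastoma arises from sympathetic neuroblasts, in which progenitor and neuronal filaments can be present side by side.

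All values are log2 expression values of the deposited table, and a difference is the shBRG1 mean minus the NSC mean. The median of each array lay between 3.77 and 3.84. Every member value was above these medians. Different probe sets respond differently to the same amount of RNA, so the levels of NES, VIM and PRPH were not ordered against each other. The members were chosen with this contrast known, so their values are a description and carry no p-value.

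NES, the progenitor filament, was the member with the large difference. Its values were 5.89, 5.77 and 5.90 in shBRG1, against 7.55, 7.44 and 7.53 in NSC. The groups did not overlap, and the gap between the highest shBRG1 array and the lowest NSC array was many times the spread within either group. The means were 5.85 ± 0.07 in shBRG1 and 7.51 ± 0.06 in NSC (SD, n = 3 each), a difference of -1.65 (SE 0.07), which is 3.15-fold lower in shBRG1. Only 8 of the 14883 genes had a more negative difference. In RNA of a whole culture, fewer nestin-positive cells and less nestin RNA per cell cannot be told apart.

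VIM, the partner with which nestin co-assembles and a filament shared by progenitors and mesenchymal cells, had values that overlapped between the groups in all 3 of its probe sets. The brightest read 8.46, 8.53 and 8.40 in shBRG1, against 8.50, 8.50 and 8.64 in NSC. Its difference was -0.08 (SE 0.08), about as large as its own error. The second averaged 8.16 ± 0.02 in shBRG1 and 8.10 ± 0.05 in NSC (SD, n = 3 each), a difference of 0.06. The third averaged 7.73 ± 0.04 in shBRG1 and 7.71 ± 0.08 in NSC (SD, n = 3 each), a difference of 0.02. The probe sets therefore differed in sign, and their average had a difference of -0.0011. In the gene table the antisense gene VIM-AS1 overlaps VIM. The annotation gives no strand or position for the probe sets, so which transcript each one reads was not tested.

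PRPH, the filament of peripheral and sympathetic neurons, differed in the opposite direction from NES and by far less. Its values were 8.15, 8.15 and 7.99 in shBRG1, against 7.81, 7.90 and 7.90 in NSC. All 3 shBRG1 arrays were above all 3 NSC arrays, with shBRG1 replicate 3 closest to the NSC range. The means were 8.09 ± 0.09 in shBRG1 and 7.87 ± 0.05 in NSC (SD, n = 3 each), a difference of 0.22 (SE 0.07) or 1.17-fold.

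**Figure D1:**
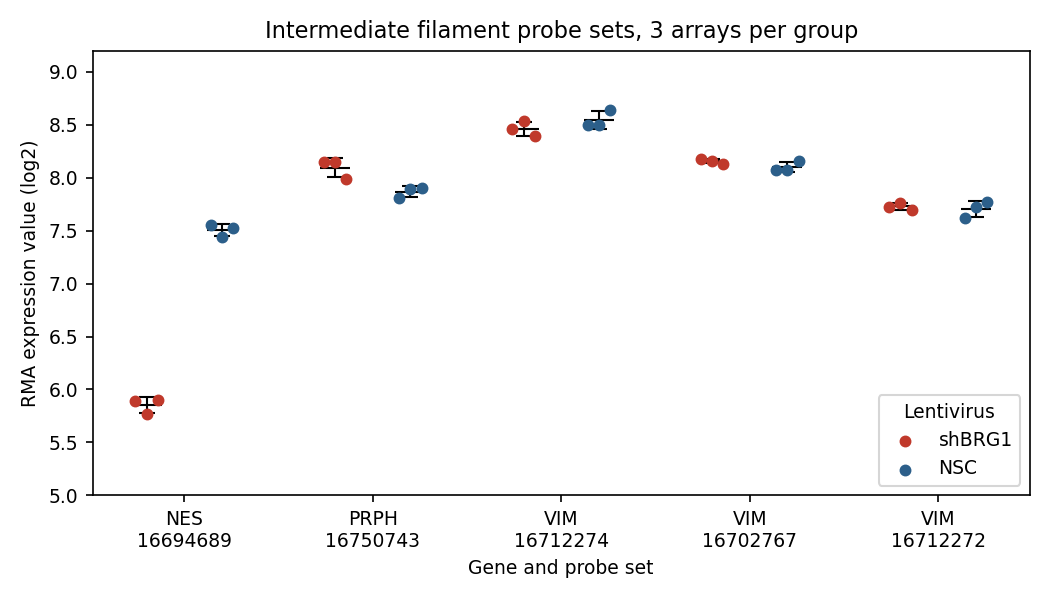
Log2 expression values (vertical axis) of the 5 member probe sets (horizontal axis) in shBRG1 (red, left of each pair) and NSC (blue), with 1 point per array and black bars for the mean and SD of 3 arrays. The group means of NES differ by -1.65, those of PRPH by 0.22, and the 3 VIM probe sets overlap; heights are not comparable between probe sets.

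Across all named genes, limma called 17% at an adjusted p under 0.05, 9.78% higher and 7.19% lower in shBRG1. The 1455 higher genes became 939, 840 and 904 when shBRG1 replicate 1, 2 or 3 was dropped and 900 when NSC replicate 2 was, and the 1070 lower genes became 694 and 700 when shBRG1 replicate 1 or 3 was. Of the 3 measured members 1 was called lower (NES) and 0 higher, and at an unadjusted p under 0.05 there was 1 higher (PRPH). PRPH was not called in this fit. Among the alternative settings it was called only with dim genes left out and with the trend and robust options of limma. The 3 shBRG1 values lay outside the NSC range for 2 of the 3 members, below it for NES and above it for PRPH. Over all genes 35.5% had such values, 15.3% below and 20.3% above. Since the contrast took part in choosing the members, nothing is read from these counts.

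**Figure D2:**
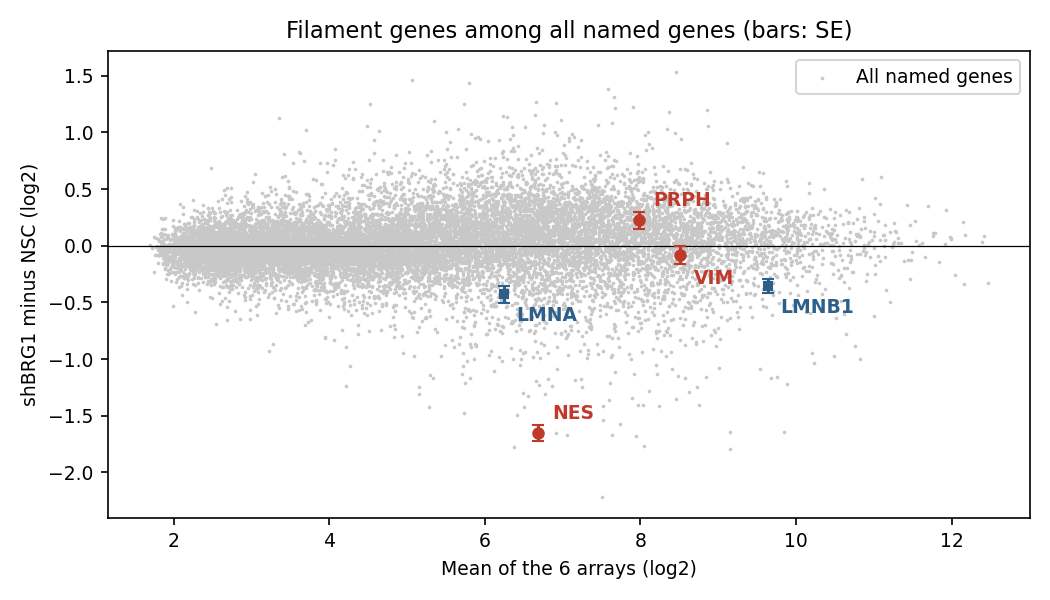
Difference of shBRG1 minus NSC (log2, vertical axis) against the mean of the 6 arrays (log2, horizontal axis) for 14883 named genes (grey), with NES, VIM and PRPH (red circles) and the lamins LMNA and LMNB1 (blue squares) and bars for the standard error. NES lies at -1.65 near the lower edge of the cloud, and VIM (-0.08) and PRPH (0.22) lie within it.

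The 100 bases before the start of each measured member are shown as a description, and any link to the differences was not tested. Sequences are from RefSeq on GRCh38.p14, 5′ to 3′ on the strand of the gene. Capitals mark matches, on either strand, to the letters TATAAA of a classical core promoter box, GGGCGG of the GC box, CCAAT of the box bound by the factor NF-Y, CACGTG of the E-box bound by MYC proteins, or TGANTCA of sites bound by the AP-1 factors. The windows are chr1:156677408-156677507 on the minus strand for NES, chr10:17228141-17228240 on the plus strand for VIM and chr12:49295047-49295146 on the plus strand for PRPH.
NES: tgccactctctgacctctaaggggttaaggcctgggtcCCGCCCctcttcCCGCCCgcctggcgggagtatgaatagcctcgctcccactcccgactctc
VIM: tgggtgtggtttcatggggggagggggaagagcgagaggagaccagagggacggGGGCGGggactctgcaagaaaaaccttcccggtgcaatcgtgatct
PRPH: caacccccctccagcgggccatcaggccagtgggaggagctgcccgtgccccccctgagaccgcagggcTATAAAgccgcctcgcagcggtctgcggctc

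The NES window held 2 GC boxes that do not overlap, beginning 62 and 50 bases before the start, and the VIM window held 1, beginning 46 bases before it. A GC box was present in 31.3% of 35116 promoter windows of this length. The PRPH window held no GC box but the letters TATAAA beginning 31 bases before the start, which 4.99% of windows held. The NF-Y box (18.1% of windows), the E-box (3.43%) and the AP-1 site (2.75%) had no match in the 3 windows. G and C made up 65% of the NES window, 61% of the VIM window and 72% of the PRPH window, against a median of 60% over all windows. These matches describe letters and not binding.

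The genes whose pattern over the 6 arrays was nearest to that of NES were SCG2, LYPLA1, RPN2, PM20D2 and S1PR2. Each gene was centred on its own mean, and likeness was the root mean square distance to NES over 6 arrays, which had a median of 0.84 over the 14882 other genes. SCG2, which encodes the granule protein secretogranin II, was nearest at a distance of 0.05. It had 8.34, 8.28 and 8.36 in shBRG1, against 9.93, 9.96 and 10.04 in NSC. RPN2, a subunit of the oligosaccharyltransferase that glycosylates proteins in the endoplasmic reticulum, had 9.03, 9.04 and 9.03 in shBRG1, against 10.64, 10.69 and 10.68 in NSC (distance 0.07). The depalmitoylating enzyme LYPLA1 stood at a distance of 0.06, PM20D2 at 0.13 and the sphingosine-1-phosphate receptor S1PR2 at 0.13. Since NES differs between the groups, any gene that is near it must differ by a similar amount, so the 5 differences of -1.67 (LYPLA1), -1.68 (PM20D2), -1.65 (SCG2), -1.64 (RPN2) and -1.49 (S1PR2) follow from the choice.

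**Figure D3:**
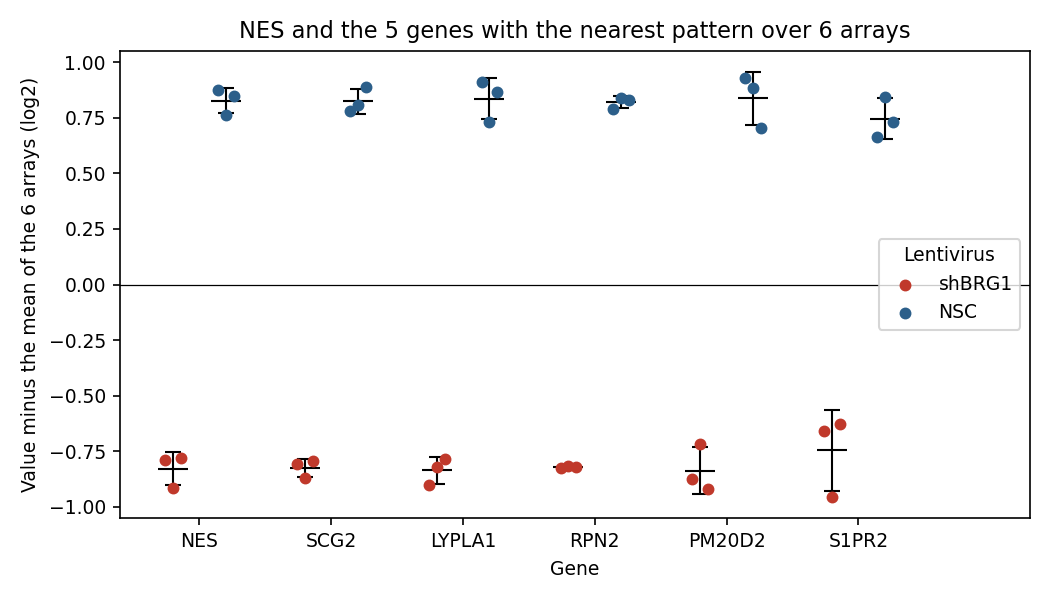
Log2 values minus the mean of the 6 arrays (vertical axis) for NES and the 5 genes with the smallest root mean square distance to it (horizontal axis), with 1 point per array, shBRG1 in red to the left of NSC in blue, and bars for the mean and SD of 3 arrays. Distances from NES run from 0.05 (SCG2) to 0.13 (S1PR2).

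Other intermediate filament genes were examined to see whether the difference of NES extends to the family. Among 18 measured genes outside the members, 2 fell and 0 rose by limma (2 and 0 at an unadjusted p under 0.05). The share called was 11.1%, against 17% over all genes, and the share lower was also 11.1%, against 7.19%. Both genes that fell encode nuclear lamins, the filaments that line the nuclear envelope. The muscle filament gene DES, named after its value was seen, did not pass (-0.24, adjusted p = 0.35). With averaged probe sets DES was called lower as well (-0.30, adjusted p = 0.045). LMNA, the gene of lamins A and C, had 5.98, 6.15 and 5.96 in shBRG1, against 6.52, 6.42 and 6.44 in NSC. The groups did not overlap, with a difference of -0.43 (SE 0.08, adjusted p = 0.0096). LMNB1, the gene of lamin B1, had 9.41, 9.49 and 9.48 in shBRG1, against 9.84, 9.78 and 9.83 in NSC, a difference of -0.35 (SE 0.06, adjusted p = 0.0099). These groups did not overlap either, and both calls held under each alternative. LMNB2 had 7.30, 7.39 and 7.37 in shBRG1, against 7.51, 7.49 and 7.50 in NSC, and did not pass the threshold (-0.14, SE 0.06, adjusted p = 0.18). Of the 11 measured keratins, the filaments of epithelia, 0 were called in either direction (0 also at an unadjusted p under 0.05), with differences from -0.17 to 0.13. Without NSC replicate 2, KRT7 alone was called higher (adjusted p = 0.025), on values of 2.75 to 3.55 that lie below the array medians. All but KRT18 of the keratins were dimmer than the median gene, so a change in them would be hard to see. The median difference of these 18 genes was -0.08, against 0.01 over all genes.

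Linker proteins tie filaments to junctions, to the membrane and to the nucleus, and of 25 measured ones 1 rose and 2 fell (2 and 5 at an unadjusted p under 0.05). The share called was 12%, against 17% over all genes, and the share lower was 8%, against 7.19%. JUP, the junction protein plakoglobin, had 7.98, 8.10 and 8.02 in shBRG1, against 8.44, 8.40 and 8.42 in NSC, a difference of -0.39 (SE 0.07, adjusted p = 0.0081). The desmosomal plakophilin PKP2 was dim and had a change of -0.57 (SE 0.14, adjusted p = 0.033). Leaving out any 1 array except shBRG1 replicate 2 ended the PKP2 call (its adjusted p ran from 0.014 to 0.095; such ranges cover every alternative in which the gene was tested except the replicate block). DMD, the gene of dystrophin, which links the cytoskeleton to the membrane, had 6.06, 6.10 and 6.05 in shBRG1, against 5.74, 5.61 and 5.44 in NSC, a difference of 0.47 (SE 0.09, adjusted p = 0.011). LBR, the lamin B receptor, was not past the threshold (0.06, adjusted p = 0.68). TMPO, named after its value was seen, did not pass either (-0.22, adjusted p = 0.052). It passed as lower after cyclic loess (adjusted p = 0.016), with dim genes left out (0.011) and with trend and robust options (0.0023). The list's median difference was -0.03, against 0.01 over all genes.

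Of 19 measured enzymes and chaperones known to modify or degrade filaments, 2 rose and 2 fell (2 and 4 at an unadjusted p under 0.05), 21.1% called in all, close to the 17% over all genes. The mitotic kinase AURKA averaged 7.41 ± 0.14 in shBRG1 and 7.92 ± 0.07 in NSC (SD, n = 3 each; -0.51, SE 0.09, adjusted p = 0.0092). MAPK9, which encodes the stress kinase JNK2, averaged 7.61 ± 0.07 in shBRG1 and 8.14 ± 0.09 in NSC (SD, n = 3 each; difference -0.53, SE 0.08, adjusted p = 0.0041). MAPK10, which encodes the neuronal kinase JNK3, averaged 3.82 ± 0.15 in shBRG1 and 3.02 ± 0.16 in NSC (SD, n = 3 each; difference 0.81, SE 0.11, adjusted p = 0.0032), but 5 of its 6 values lie below the median of their array, so the size of this difference rests on values that may be background, and the gene was not tested with dim genes left out. TRIM2, a ubiquitin ligase that in mice binds neurofilament light chain, rose to 8.76, 8.74 and 8.71 in shBRG1, against 8.42, 8.41 and 8.46 in NSC (0.30, SE 0.06, adjusted p = 0.016). Its call ended when NSC replicate 1, NSC replicate 2 or shBRG1 replicate 1 was left out (adjusted p from 4.6e-04 to 0.059). PLK1, a mitotic kinase, had a difference of -0.04 (adjusted p = 0.78). The median difference of the list was -0.03, against 0.01 over all genes.

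Genes of neural and neural crest progenitors, the cells that nestin marks, were called in 8 of 31 measured cases, 6 lower and 2 higher. At an unadjusted p under 0.05, 8 were lower and 3 higher. The share called was 25.8%, against 17% over all genes, and the share lower was 19.4%, against 7.19%. Of the 31 genes, 20 were dimmer than the median gene. CXCR4, a chemokine receptor of migrating progenitors, had 4.84, 4.94 and 4.39 in shBRG1, against 6.20, 5.52 and 5.87 in NSC. Its arrays scattered more than those of NES but did not overlap (-1.14, SE 0.20, adjusted p = 0.0085). HEY1, a transcriptional repressor induced by Notch, had 6.37, 6.27 and 6.14 in shBRG1, against 6.95, 6.97 and 7.12 in NSC (-0.75, SE 0.09, adjusted p = 0.0018). DLL3, an inhibitory Notch ligand, fell with a difference of -0.50 (adjusted p = 0.0076), and the neural crest transcription factor SOX9 with one of -0.49 (adjusted p = 0.0042). MEIS1, a homeodomain protein, rose to 6.44 ± 0.12 in shBRG1, against 5.92 ± 0.12 in NSC (SD, n = 3 each; 0.52, adjusted p = 0.0098).

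The remaining calls of the progenitor list were named after their values were seen, and each was lost without most of the single arrays. They were the RNA-binding protein gene MSI1 (-0.27, adjusted p = 0.025), TFAP2B (-0.28, adjusted p = 0.032) and MEIS2 (0.27, adjusted p = 0.029). MSI1 lost its call without each of the 6 arrays in turn and under the trend and robust options (0.016 to 0.081). TFAP2B lost it without any array but NSC replicate 2 and after centring (0.0018 to 0.10). MEIS2 lost it without each of the 6 arrays, after cyclic loess and with averaged probe sets (0.0043 to 0.15). Other genes, also named after their values were seen, passed only in some alternatives. NOTCH1 (0.22) passed as higher without NSC replicate 1 (adjusted p = 0.049). As lower, HES5 (-0.35) passed without NSC replicate 1 (0.019) and DLL1 (-0.27) without NSC replicate 2 (0.031). HES6 (-0.26) passed as lower with dim genes left out (0.036) and without shBRG1 replicate 2 (0.040).

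SOX and POU3F factors are known to act on the neural enhancer of nestin. Of 10 measured SOX and POU3F genes, 1 fell (SOX9) and 0 rose (1 and 0 at an unadjusted p under 0.05), and 8 were dimmer than the median gene. SOX2 had 4.19, 4.14 and 4.28 in shBRG1, against 4.34, 4.40 and 4.27 in NSC, so the groups overlapped (adjusted p = 0.27). POU3F2 had 4.50, 4.10 and 4.42 in shBRG1, against 4.43, 4.61 and 4.52 in NSC, and overlapped as well (adjusted p = 0.34). SOX4, the brightest of the progenitor list, differed by -0.02 (adjusted p = 0.91). SOX2 and POU3F2 were picked after their values were seen. The median difference of the 31 progenitor genes was -0.09, against 0.01 over all genes.

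The axonal cytoskeleton, with which neuronal filaments are packed, had 7 of 37 measured genes lower and 0 higher by limma (10 and 2 at an unadjusted p under 0.05). That is 18.9% lower, against 7.19% over all genes. In either direction the share was also 18.9%, against 17% over all genes. Only 4 of the 37 were dimmer than the median gene. With dim genes left out, 1224 of the 7442 genes kept were lower, a larger share than 7.19%. MAP1B, a microtubule-associated protein of growing axons, had 10.69 in each shBRG1 array, against 11.29, 11.38 and 11.27 in NSC (-0.62, SE 0.07, adjusted p = 0.0014). DPYSL4, a collapsin response mediator of the growth cone, averaged 5.87 ± 0.10 in shBRG1 and 6.59 ± 0.09 in NSC (SD, n = 3 each; -0.72, SE 0.08, adjusted p = 0.0020). NFASC, which encodes neurofascin of the axon initial segment, had 6.14, 6.06 and 6.20 in shBRG1, against 6.88, 6.71 and 6.81 in NSC (-0.66, SE 0.08, adjusted p = 0.0018). None of these 3 genes overlapped between the groups, and their calls held under each alternative.

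The doublecortin-like kinases also fell, with differences of -0.57 for DCLK1 (adjusted p = 0.013) and -0.44 for DCLK2 (adjusted p = 0.010). The DCLK1 call ended when shBRG1 replicate 1 or 3 was left out (0.0016 to 0.051). The other two lower genes were named after their values were seen. DPYSL3 (-0.40, adjusted p = 0.021) was lost when NSC replicate 2, shBRG1 replicate 1 or shBRG1 replicate 3 was left out (0.0039 to 0.073), and the adhesion molecule NRCAM (-0.26, adjusted p = 0.041) without each of the 6 arrays and after centring (0.0010 to 0.13). Without shBRG1 replicate 1 or 3, 4 genes of the list were lower, and without NSC replicate 3, GAS7 was called higher (adjusted p = 0.034), with all 6 values below the array medians. After cyclic loess 9 genes were lower, with MAP2 and MAP6 added. With dim genes left out 10 were lower, with MAP2, MAP6 and MARCKS added, and KIF3A was higher (adjusted p = 0.049). Trend and robust options also gave 10 lower, with MAP2, MARCKS and KIF5B added. These added genes were named after their values were seen. STMN2, a regulator of axonal microtubules, had 11.31, 11.37 and 11.37 in shBRG1, against 11.31, 11.28 and 11.25 in NSC, a difference of 0.07 (adjusted p = 0.54). The median difference of the axonal list was -0.07, against 0.01 over all genes.

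The 9 measured genes of the tubulin and actin list held actin-related and actin-binding proteins, and the tubulins and actins themselves were not analysed here. Of these 9, 3 fell and 0 rose by limma (4 and 1 at an unadjusted p under 0.05), 33.3% lower against 7.19% over all genes. In either direction the share was also 33.3%, against 17% over all genes. Of the 9 genes, 2 were dimmer than the median gene. The tropomyosins TPM4 (-0.34, adjusted p = 0.015) and TPM1 (-0.32, adjusted p = 0.033) and the actin-severing cofilin CFL1, a dim gene (-0.30, adjusted p = 0.035), were the genes that fell. The 3 calls were not stable. TPM4 was lost without NSC replicate 1 or shBRG1 replicate 1 (6.0e-04 to 0.057), TPM1 without any array but shBRG1 replicate 2, after centring and with averaged probe sets (0.0088 to 0.11), and CFL1 without each array, after centring and with trend and robust options (0.032 to 0.10). Without NSC replicate 1 or shBRG1 replicate 1, 0 genes of the list were lower, and without NSC replicate 2 or 3 or shBRG1 replicate 3, 1 was. TMSB10, an actin-sequestering thymosin, was not past the threshold (-0.25, adjusted p = 0.066). It passed as lower after cyclic loess, with dim genes left out and with trend and robust options (0.0019 to 0.030 in these settings alone). The brighter cofilin gene CFL2, named after its value was seen, differed in the other direction and did not pass (0.24, adjusted p = 0.051). CFL2 passed as higher with dim genes left out (adjusted p = 0.013) and with trend and robust options (adjusted p = 0.0037). The median difference of these 9 genes was -0.14, against 0.01 over all genes.

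**Figure D4:**
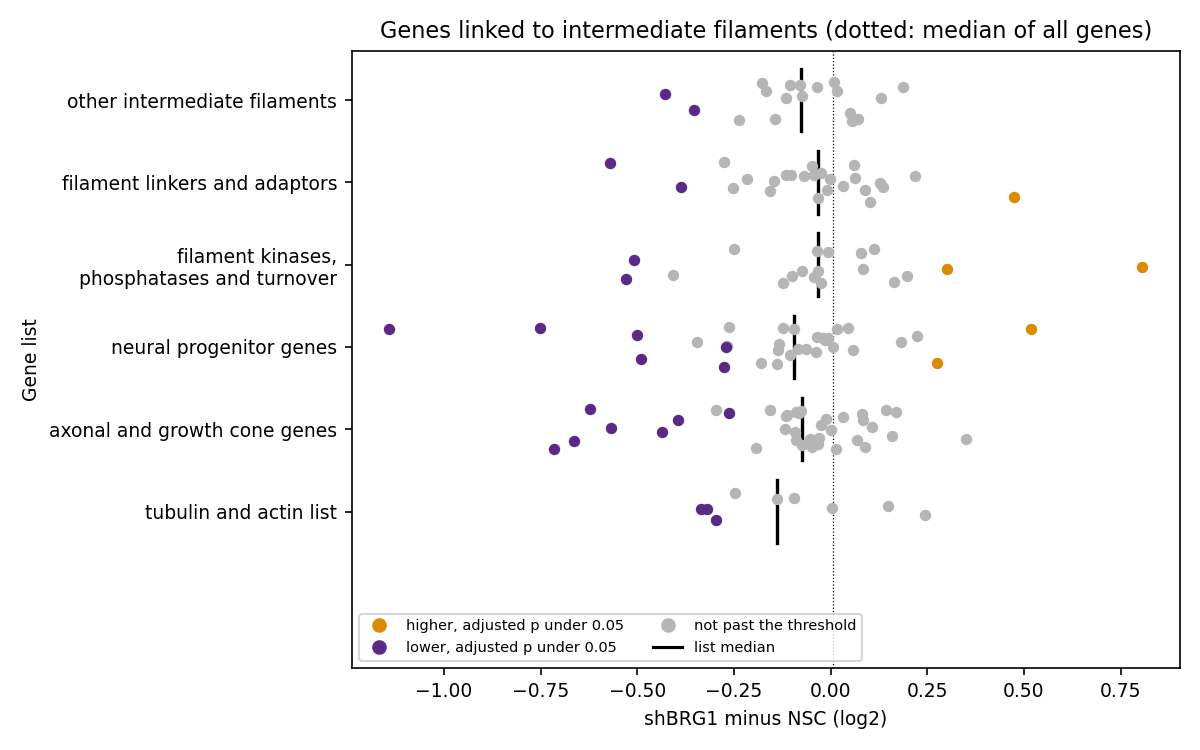
Difference of shBRG1 minus NSC (log2, horizontal axis) of each measured gene in 6 lists linked to intermediate filaments (vertical axis, scattered within a list for legibility), coloured by its limma call, with a black line for the list median and a dotted line for the median of all genes (0.01). Most genes of every list are grey, and no plotted gene is as low as NES (-1.65); the lowest is CXCR4 (-1.14).

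Cell identity markers were read beside the members. Of 15 measured adrenergic neuroblast markers, which define the sympathetic state of this line, 9 fell and 0 rose (9 and 1 at an unadjusted p under 0.05). That is 60% lower, against 7.19% over all genes, and also 60% in either direction, against 17%. Of the 15 markers, 1 was dimmer than the median gene. The mean over the list was 9.24 to 9.28 in the shBRG1 arrays and 9.48 to 9.49 in the NSC arrays. With trend and robust options 2 of these markers were higher (GATA3 and SCG3), and with dim genes left out 1 was (GATA3). STMN2 and DBH, the noradrenaline-synthesising enzyme (0.08, adjusted p = 0.50), did not pass, and the granule protein gene CHGA fell (-0.48, adjusted p = 0.0027). The other genes that fell were named after their values were seen. They were RET (-0.59), the dim ALK (-0.55), PHOX2A (-0.51), GATA2 (-0.50), ISL1 (-0.44), DLK1 (-0.43), HAND2 (-0.38) and CHGB (-0.30). The 6 markers that did not pass all had positive differences. Besides STMN2 and DBH these were GATA3 (0.21, adjusted p = 0.068), SCG3 (0.15, adjusted p = 0.18), TH (0.11, adjusted p = 0.39) and DDC (0.06, adjusted p = 0.59). These 4 were also named after their values were seen. The CHGB call was lost without any array but shBRG1 replicate 2, and that of ISL1 with averaged probe sets. Of 9 mesenchymal and fibroblast markers, 2 rose and 1 fell (4 and 1 at an unadjusted p under 0.05), 33.3% called against 17% over all genes. The list means overlapped, with 5.90 to 6.03 in shBRG1 and 5.81 to 5.97 in NSC. The transcription factor SNAI2 fell (-0.47, adjusted p = 0.0092) and the proteoglycan LUM rose (0.39, adjusted p = 0.027). The LUM call ended when NSC replicate 2, NSC replicate 3, shBRG1 replicate 1 or shBRG1 replicate 2 was left out (0.0018 to 0.081). DCN, another proteoglycan, named after its value was seen, rose by 0.44 (adjusted p = 0.0092), and THY1 differed by -0.07 (adjusted p = 0.58). The dim PRRX1 (0.32, adjusted p = 0.052) passed as higher after centring (adjusted p = 0.041) and after cyclic loess (adjusted p = 0.034). FBN1 (0.21, adjusted p = 0.11) passed as higher with dim genes left out (adjusted p = 0.038). Both were named after their values were seen.

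Of 6 Schwann and glial markers, 1 fell and 0 rose (3 and 0 at an unadjusted p under 0.05). That is 16.7% called, against 17% over all genes, and 5 of the 6 genes were dimmer than the median gene. The list means were at most 4.03 in shBRG1 and at least 4.18 in NSC. The gene that fell was the dim FOXD3, named after its value was seen (-0.24, adjusted p = 0.041), and its call was lost in 9 of the 10 alternatives without a block in which it was tested. Of the brightest, SOX10 (-0.29, adjusted p = 0.053), S100B (-0.41, adjusted p = 0.072) and GFAP, the glial filament (0.19, adjusted p = 0.30), did not pass. SOX10 passed as lower after cyclic loess (adjusted p = 0.037) and with dim genes left out (adjusted p = 0.016), and S100B without shBRG1 replicate 2 (adjusted p = 0.044). Of 10 epithelial markers 0 were called (0 higher and 1 lower at an unadjusted p under 0.05), and among the brightest KRT18 differed by 0.07 (adjusted p = 0.66), KRT8 by 0.01 (adjusted p = 0.97) and CLDN3 by -0.31 (adjusted p = 0.094). CLDN3 passed as lower with dim genes left out (adjusted p = 0.037) and with trend and robust options (adjusted p = 0.0497), and CLDN4 passed as lower without NSC replicate 2 (adjusted p = 0.027). Whether the lower adrenergic markers, or the few and mostly dim glial ones, have a part in the difference of NES was not tested.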

How the data were processed

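Total RNA of 6 SK-N-BE(2) samples was measured on 1 single-colour Affymetrix array each. Each probe set has 1 deposited log2 value per array, and RMA, oligo 1.27, limma 3.19 and R 3.1.0 are named per the submitters' processing notes. The log2 scale was read from the range of the values. RMA sets arrays to 1 distribution, so a shift of all genes would not be seen. Detection calls, scan days and the genome build were not given in the sources used here. Of 52299 probe sets, 15828 carried 1 gene symbol, 0 several and 36471 none. All 15828 were brought up to date through the GRCh38.p14 gene table. The brightest probe set per gene was kept, leaving 14883 genes.

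Groups follow the lentivirus label. The test was limma's moderated test (version 3.58.1 under R 4.3.3, two-sided, default eBayes), adjusted by Benjamini and Hochberg over all 14883 genes, threshold 0.05. With 3 against 3, exact permutation p-values have a floor of 0.1. No label says that the replicates were separate cultures, so the spread behind the p-values is that among these samples and may be technical. The number of arrays, 3 per group, limits precision (median standard error of a difference 0.09).

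Members and lists were chosen with earlier results of these data known. The lists come from textbook knowledge, and STMN2, GFAP, KRT8, KRT18 and KRT19 stand in more than 1. Named were all members, from each filament list up to 5 called genes with the smallest p and the brightest uncalled one, the 3 brightest of each marker list, and the 5 genes nearest NES. Alternatives were centring on array medians, cyclic loess, keeping only genes at least as bright as the median gene, averaging probe sets, trend and robust options, the replicate number as a block, and leaving out each array. On simulated arrays of 14883 genes for this comparison the fit called 70 of 100 genes given a log2 change of 0.5, 98 of 100 given one of 1, and 16 of 14683 unchanged genes. The simulated noise was independent between genes, and far fewer genes were changed than the 2525 called in the data. These counts check the fit and do not give its power or error rate on the real arrays. Matplotlib 3.10.9 (Python 3.11.15) drew the figures.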

Additional observations from a re-analysis of the deposited data

How the results depend on the processing

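The difference of NES stayed between -1.69 and -1.61 without each array in turn and was -1.72 after cyclic loess and -1.64 after centring. Those of VIM and PRPH ranged from -0.12 to -0.03 and from 0.20 to 0.28 without single arrays, VIM was at -0.0011 with averaged probe sets, and PRPH at 0.16 after cyclic loess. Leaving out 1 array gave 840 to 1055 genes higher and 694 to 859 lower over all genes, 1 member lower and 0 higher in each case.

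Without single arrays, counts of genes higher ranged from 0 to 1 among other filaments, 1 to 1 among linkers, 1 to 2 among enzymes, 1 to 2 among progenitor genes, 0 to 1 among axonal genes and 0 to 0 in the tubulin and actin list. Counts of genes lower ranged from 2 to 2, 1 to 2, 2 to 3, 4 to 6, 4 to 6 and 0 to 2 in the same lists. With dim genes left out, 1 member, 1 enzyme, 1 axonal gene and 1 gene of the tubulin and actin list were higher and 4 enzymes lower. Trend and robust options gave 1 member and 1 gene of the tubulin and actin list higher. Centring left 1 gene of the tubulin and actin list lower, cyclic loess left 1 progenitor gene higher, and so did averaging probe sets.

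With the replicate number as a block, 870 genes were higher, 1 enzyme and 1 progenitor gene were higher, and 0 genes of the tubulin and actin list were lower. Of the adrenergic markers, 8 were lower under the block. The block also ended the calls of TRIM2, MSI1, TFAP2B, MEIS2, NRCAM, TPM1, TPM4, CFL1 and FOXD3, at adjusted p of 0.063 (TPM4) to 0.12 (NRCAM). The block has fewer degrees of freedom, and the numbers share only a name: same-numbered arrays deviated with r of -0.04, -0.14 and -0.03 across genes, and no array correlated best with its own number. The cause of the other shifts was not tested. Dim genes, such as most keratins and SOX factors, limit what these arrays can show.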
